A study of Oryza sativa Japonica Group with 6 samples.

Results

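Among the 55986 rice loci measured, 15 met an FPKM rule for presence in the samples of a single genotype. A locus was taken when its FPKM (fragments per kilobase of transcript, scaled to the mapped fragments of the library) was at least 1 in all 3 samples of that genotype and below 0.1 in all 3 samples of the other. The rule left out 2 stretches of neighbouring loci, LOC_Os09g24720 to LOC_Os09g27040 on chromosome 9 and LOC_Os07g12350 to LOC_Os07g13000 on chromosome 7, which together hold 285 loci. Of the 55701 loci outside them, 12 were present only in the overexpression plants (OEZ) and 3 only in the control plants (ZH17). The 15 loci are 0.0269% of the loci to which the rule was applied.

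ZH17 is the nontransformed japonica cultivar Zhonghua17. OEZ is the same cultivar carrying the open reading frame of OsLTPL159, a nonspecific lipid transfer protein gene, in the form of the introgression line IL112, behind the constitutive CaMV 35S promoter and brought in with Agrobacterium strain EHA105. Early seedlings of both genotypes were cold-treated at the bud stage (5 mm) for 3 h at 2 °C, so no untreated plants enter the comparison, and each of the 3 libraries per genotype came from a pool of 50 plants. How many independent transformed lines went into the OEZ pools is not given in the sources used here, so the genotype and the history of the transformed plants cannot be told apart.

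Nonspecific lipid transfer proteins are small secreted proteins that bind lipids, and the 35S promoter drives a gene in most tissues of a plant. In rice, Agrobacterium transformation passes through callus, and the regenerated plants may therefore differ from nontransformed plants in more than the inserted gene. An FPKM describes reads placed on the Nipponbare reference annotation. A locus listed at 0 may be silent, may be missing from the plant, or may have reads that were not assigned to it, and these cannot be told apart from the deposited values. The word present is used below for the FPKM limits only, and not for the gene itself.

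The 6 libraries were alike in extent. Between 27083 and 27345 loci lay above 0 FPKM in each, and the FPKM summed to between 856329 and 902931. The deposited values carry no read counts, so the depth is unknown, but the steps between the lowest values put the other 5 libraries at 1.02 to 1.32 times the depth of ZH17 replicate 1. The targeted gene fitted the labels, with OsLTPL159 (LOC_Os10g36160) at 141, 138 and 131 FPKM in ZH17 and 2506, 2539.9 and 2502 FPKM in OEZ, a log2 fold change of 4.20 ± 0.05 (SE; adjusted p = 1.4e-07, limma). The exact two-sided permutation test on the same values gave p = 0.1, the smallest that 3 against 3 allows. The 11 chlorophyll A-B binding protein loci, markers of green tissue, were above 0 in the libraries and summed to 10131 to 10765 FPKM in ZH17 and 5748 to 6783 in OEZ. The 4 alpha-amylase loci, markers of the germinating grain, summed to 68.9, 180 and 120 FPKM in ZH17 and to 1.89, 167 and 2.05 FPKM in OEZ. OEZ replicates 1 and 3 thus stood apart from the other 4 libraries in alpha-amylase RNA. The 3 seed storage loci, also grain markers, summed to 0.593 to 5.80 FPKM in ZH17 and 0 to 26.1 FPKM in OEZ. Green tissue markers were lower in every OEZ library than in any ZH17 library. What part green tissue or grain RNA had in the results below was not tested, also where values are given. Fewer cells of a type and less RNA per cell cannot be told apart in such pools.

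None of the 15 loci has a description in the sources used here, so they are given by identifier. The descriptions come from the study's table of 1351 differentially expressed loci, so the study listed none of the 15 there. Why its Cuffdiff comparison did not list them was not tested. An identifier of the MSU annotation holds the chromosome and increases along it, which gives the order of loci but no distance in bases. The values in both genotypes chose the loci, so the levels that follow are a description without a test.

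The highest level among the loci present in OEZ only belonged to LOC_Os03g02470. It had 62.98, 65.4 and 62.5 FPKM in OEZ and was listed at 0 in all 3 ZH17 samples. Its mean of 63.6 ± 1.56 FPKM (SD, n = 3 pools) placed it at percentile 92.3 of the loci above 0, and its coefficient of variation (SD over mean) of 2.45% was the lowest of the 15 loci. For comparison, the median coefficient of variation of OEZ loci between 20 and 200 FPKM was 4.82% over 6233 loci. This locus was therefore abundant and even between the OEZ pools.

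LOC_Os03g26280 had 31.2, 13.4 and 23.96 FPKM in OEZ (22.8 ± 8.94) and was listed at 0 throughout ZH17. Its coefficient of variation of 39.1% was far above the median for its level, with the lowest value in OEZ replicate 2, the OEZ library with the most alpha-amylase RNA. Whether grain RNA had a part in this was not tested. LOC_Os07g06834 had 8.52, 11.1 and 8.38 FPKM in OEZ (9.34 ± 1.54) against 0.0574 FPKM in ZH17 replicate 1 and 0 in ZH17 replicates 2 and 3. LOC_Os11g23170 had 4.65, 4.79 and 5.69 FPKM in OEZ (5.05 ± 0.563) and was listed at 0 in ZH17. These 4 loci were those above a mean of 5 FPKM among the 12.

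The other 8 loci present in OEZ only lay between 1.25 and 4.29 FPKM on average. LOC_Os03g43100 had 4.03, 4.52 and 4.31 FPKM in OEZ, and LOC_Os01g46860 had 3.56, 3.67 and 3.43 FPKM. Both were listed at 0 in ZH17 and varied little between OEZ pools, with coefficients of variation of 5.77% and 3.41% beside a median of 14.5% for OEZ loci between 1 and 5 FPKM.

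LOC_Os08g11720 had 4.40, 3.6 and 3.49 FPKM in OEZ and was listed at 0 in ZH17. LOC_Os11g22960 had 2.58, 3.02 and 2.69 FPKM in OEZ and was likewise listed at 0 in ZH17. LOC_Os11g35300 had 1.57, 2.82 and 1.37 FPKM in OEZ, with 0 in every ZH17 sample. The last of these was less even, with its highest value in OEZ replicate 2, the OEZ library with the most alpha-amylase RNA. The part of grain RNA in this was not tested.

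LOC_Os08g25040 was the most uneven locus, at 4.85, 1.48 and 1.28 FPKM in OEZ and 0 in ZH17. Its coefficient of variation of 79.3% came from OEZ replicate 1, and the other OEZ samples lay close to the lower limit of the rule. Alpha-amylase RNA was low in OEZ replicates 1 and 3, at 1.89 and 2.05 FPKM, where the locus had its highest and its lowest value, and the part of grain RNA was not tested.

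In 3 loci the ZH17 side was not wholly at 0. Besides LOC_Os07g06834, LOC_Os02g54790 had 0.0508 FPKM in ZH17 replicate 2 and 1.95, 2.35 and 1.61 FPKM in OEZ. LOC_Os10g29390 had 0.0556 and 0.0522 FPKM in ZH17 replicates 1 and 2, 0 in ZH17 replicate 3, and 1.27, 1.41 and 1.06 FPKM in OEZ. The label of presence in a single genotype therefore holds for these 3 loci only by the limit of 0.1 FPKM, whereas 12 of the 15 loci were listed at 0 in every sample of the other genotype.

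**Figure D1:**
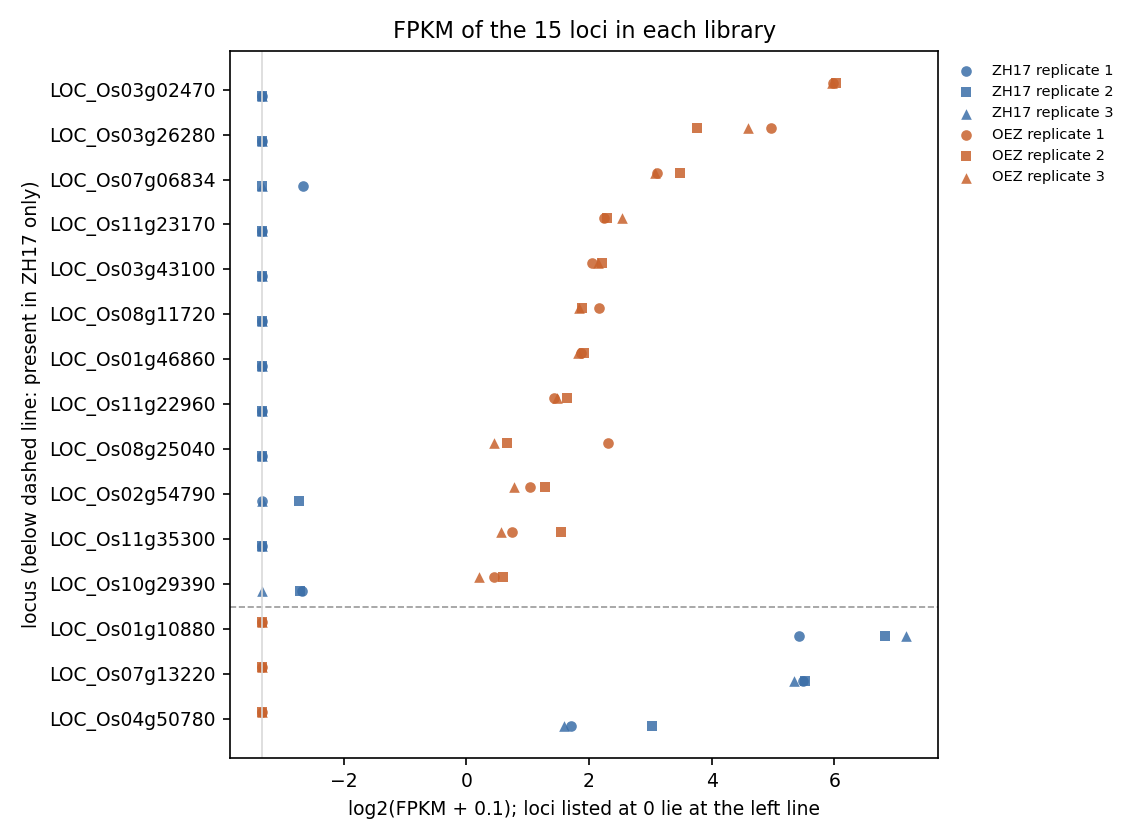
Level of each of the 15 loci in each library, as log2(FPKM + 0.1) on the horizontal axis, with loci in rows, ZH17 in blue, OEZ in orange and a marker shape for each replicate. The vertical line at the left marks loci listed at 0, and the 12 loci above the dashed line are present in OEZ only, with means from 1.25 to 63.6 FPKM, whereas the 3 below it are present in ZH17 only.

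The 3 loci present in ZH17 only were listed at 0 in all OEZ samples. LOC_Os07g13220 was the even one, at 44.8, 45.98 and 40.3 FPKM in ZH17 (43.7 ± 3.0, coefficient of variation 6.87%), close to the median of 6.59% for ZH17 loci between 20 and 200 FPKM. LOC_Os01g10880 reached the highest level of the 15 loci, 43.1, 113 and 144 FPKM (100.02 ± 51.7), and its ZH17 values differed 3.34-fold between the lowest and the highest sample. LOC_Os04g50780 was the lowest of the 3, at 3.18, 8.08 and 2.93 FPKM (4.73 ± 2.91), with its highest value in ZH17 replicate 2. That library also had the most alpha-amylase RNA in ZH17, at 180 FPKM. ZH17 replicate 1 was above replicate 3 for the locus but below it for alpha-amylase, at 68.9 and 120 FPKM. The part of grain RNA in this was not tested.

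The uneven ZH17 values of LOC_Os01g10880 can be set beside the grain markers. ZH17 replicate 1 was lowest in both, with 68.9 FPKM of alpha-amylase RNA, but ZH17 replicate 3 was highest for the locus and ZH17 replicate 2 for alpha-amylase. OEZ replicate 2 had 167 FPKM of alpha-amylase RNA, inside the ZH17 range, and LOC_Os01g10880 was listed at 0 there too. The rule required this low value in OEZ replicate 2, and the part of grain RNA in the difference was not tested.

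All 15 loci passed a mean of 0.5 FPKM over the 6 samples, the filter for the fit across loci, which every locus selected by the rule passes through the genotype where it is present. All 15 passed a fold change of 1.5 and an adjusted p under 0.05 in the limma fit, where 2.98% of the 22841 tested loci did so (1.56% higher and 1.42% lower in OEZ). The rule used this contrast, so nothing is read from that count. Fold changes are not given for these loci, because a fold against values listed at 0 depends on the constant added before the logarithm.

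Summed over the 12 loci, the OEZ libraries had 131.5, 117.6 and 119.8 FPKM, of which LOC_Os03g02470 gave the largest share, and the ZH17 libraries had 0.113, 0.103 and 0 FPKM. The sums over the 3 loci present in ZH17 only were 91.1, 167 and 187 FPKM in ZH17 and 0 in each OEZ library. Among the 12 loci, the highest OEZ value fell in replicate 1 for 3 loci, in replicate 2 for 8 and in replicate 3 for 1. OEZ replicate 2 had 167 FPKM of alpha-amylase RNA, beside 1.89 and 2.05 FPKM in replicates 1 and 3. The same share over all loci was not counted, and the part of grain RNA was not tested.

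How far such a pattern goes beyond the difference between pools was described by taking libraries in pairs, over the loci outside the left-out stretches. Within ZH17, 184 to 194 loci had at least 1 FPKM in one library of a pair and below 0.1 in the other, and within OEZ 185 to 212 loci did so. The 9 pairs across genotypes gave 195 to 253 such loci, a mean of 221 beside means of 189 and 199 within ZH17 and OEZ. Across genotypes, 105 to 133 loci per pair were present in the OEZ library only and 80 to 120 in the ZH17 library only. Most loci that were present in a single library of a pair were thus not repeated by the other replicates, and 12 and 3 loci remained when all 3 samples of each genotype were required. Within a genotype, 319 loci in ZH17 and 336 in OEZ had at least 1 FPKM in a sample and below 0.1 in another.

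**Figure D2:**
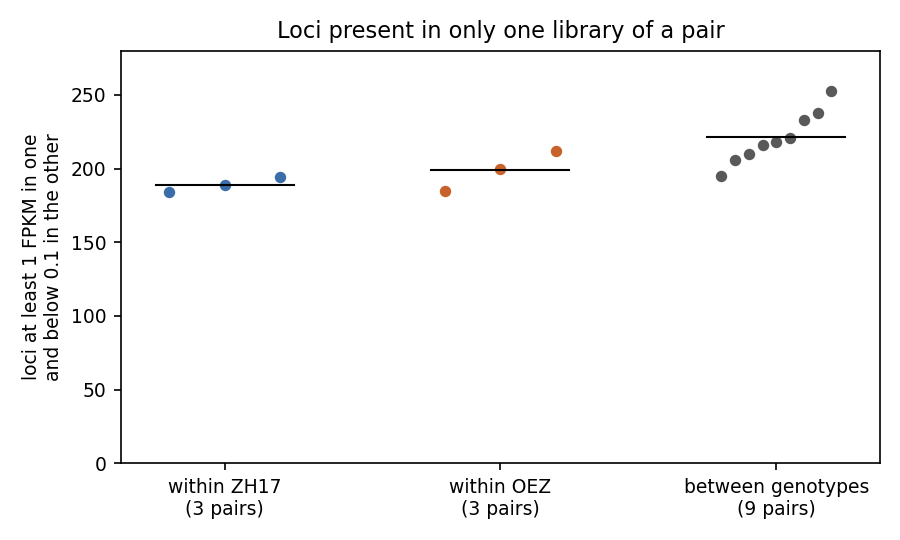
Number of loci with at least 1 FPKM in one library and below 0.1 in the other, on the vertical axis, for each pair of libraries within ZH17, within OEZ and between the genotypes; points are pairs and lines are means. Pairs between genotypes, at 195 to 253 loci, overlapped the pairs within a genotype, at 184 to 212.

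The count in ZH17 rested on having all 6 libraries. Without OEZ replicate 2 the rule gave 9 loci present in ZH17 only, the alpha-amylase locus LOC_Os02g52700 among them, and without ZH17 replicates 1 or 3 it gave 8 and 11. Without OEZ replicates 1 or 3 it gave 5 and 9, and without ZH17 replicate 2 it gave 4. For loci present in OEZ only the counts were 15 to 18. Leaving out a library removes a condition of the rule, so these counts can only rise and the 15 loci cannot be lost.

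The limits of the rule cut through a continuous range at low FPKM. Just outside the lower limit in OEZ lay LOC_Os07g23210, described as a transposon protein, with a lowest OEZ value of 0.996 FPKM, followed by LOC_Os06g05410 at 0.948, LOC_Os02g30480 at 0.854, LOC_Os11g44960, a glycosyl hydrolase family 3 protein, at 0.814 and LOC_Os08g37070 at 0.801. Just inside it lay LOC_Os10g29390 at 1.06, LOC_Os08g25040 at 1.28, LOC_Os11g35300 at 1.37, LOC_Os02g54790 at 1.61 and LOC_Os11g22960 at 2.58 FPKM. In ZH17, the nearest loci outside the lower limit were LOC_Os01g50350 at 0.855, LOC_Os08g02590 at 0.645, LOC_Os08g28430 at 0.563, LOC_Os04g44990 at 0.386 and LOC_Os10g34960 at 0.323 FPKM, far below the 3 loci inside, of which the nearest was LOC_Os04g50780 at 2.93.

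The limit on the absent side left out loci whose OEZ levels lay within or above the range of the 12 loci. LOC_Os03g18779 had 71.5, 66.95 and 69.5 FPKM in OEZ, more than any of the 12 loci, but 0.166, 0.0518 and 0.143 FPKM in ZH17, and was left out because replicates 1 and 3 exceeded 0.1. LOC_Os09g31019 had 15.6, 27.6 and 26.4 FPKM in OEZ and 0.133 FPKM in ZH17 replicate 1. LOC_Os01g15740, with at most 0.199 FPKM in ZH17, LOC_Os06g35165, with at most 0.164, and LOC_Os05g45170, with at most 0.138, had lowest OEZ values of 4.94, 2.56 and 2.18 FPKM. These 5 loci joined the 12 when the upper limit was 0.2 FPKM.

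In the other direction the loci outside that limit were low in ZH17 as well. LOC_Os04g07920 had at least 1.22 FPKM in ZH17 and at most 0.181 in OEZ. LOC_Os12g36840, of the pathogenesis-related Bet v I family, had at most 0.220 FPKM in OEZ, LOC_Os07g28160, a cytochrome P450 of family 51, 0.408, LOC_Os06g49930, the F-box protein OsFBX207, 0.422, and LOC_Os12g04200, a GRAS family transcription factor, 0.489.

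The 15 loci lay on 8 of the 12 chromosomes. Chromosomes 3 and 11 each held 3 of the loci present in OEZ only, chromosome 8 held 2, and chromosomes 1, 2, 7 and 10 held 1 each. The loci present in ZH17 only lay on chromosomes 1, 4 and 7. Chromosomes 5, 6, 9 and 12 held none, and keeping the left-out stretches of chromosomes 7 and 9 added no locus.

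In the order of loci along their chromosomes, LOC_Os03g02470 was 148th of 5568 on chromosome 3, near the start at 2.66% of the order. LOC_Os03g26280 and LOC_Os03g43100 followed at 41.5% and 65.3%. LOC_Os02g54790 lay near the end of chromosome 2, at 92.7% of the order, and LOC_Os04g50780 lay at 83.6% on chromosome 4. The others lay between 12.3% (LOC_Os07g06834) and 71.4% (LOC_Os11g35300). No 2 of the 15 loci were within 10 loci of each other, and pairs on the same chromosome had 600 to 3488 loci between them except on chromosome 11.

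**Figure D3:**
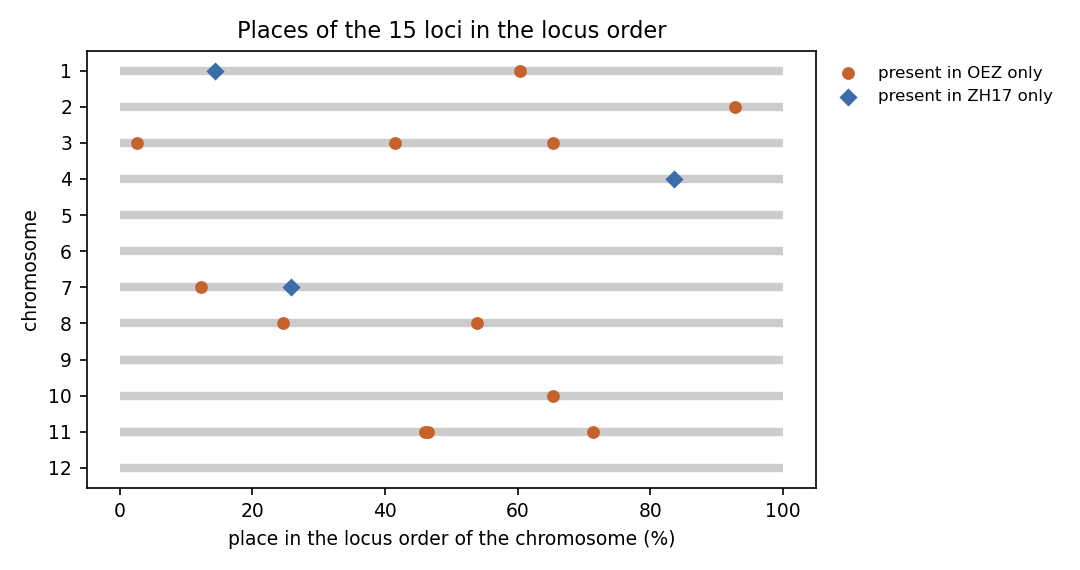
Place of each of the 15 loci in the order of loci along its chromosome, in percent on the horizontal axis, with chromosomes 1 to 12 from top to bottom; orange circles are present in OEZ only and blue diamonds in ZH17 only. The loci spread over 8 chromosomes, and only LOC_Os11g22960 and LOC_Os11g23170, at 46.0% and 46.5% of chromosome 11, overlap in the plot.

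LOC_Os11g22960 and LOC_Os11g23170 were the closest pair, with 19 loci between them. Of these 19 loci, 18 were listed at 0 in all 6 samples, and the exception, LOC_Os11g23080, had 0.232 FPKM in OEZ replicate 1 only. The stretch held no locus with a mean of at least 0.5 FPKM other than the pair. The nearest such locus before it, LOC_Os11g22404, lay beyond 52 further loci and had 4.10 ± 0.341 FPKM in ZH17 and 4.97 ± 0.576 in OEZ (adjusted p = 0.25, limma).

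After the pair, LOC_Os11g23242 lay beyond 9 further loci and was listed at 0 in all ZH17 samples and in OEZ replicates 2 and 3, with 8.06 FPKM in OEZ replicate 1. From the pair to this locus no value above 0 occurred in ZH17. The pair thus stood in a stretch with almost no RNA in either genotype, and it was the only place where 2 of the 15 loci came near each other.

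The surroundings of the other loci differed. Over the 10 loci on each side of every one of the 15, 151 of 300, or 50.3%, were listed at 0 in all 6 samples, beside 45.3% of the loci outside the left-out stretches. Around LOC_Os11g22960 all 20 loci were at 0, around LOC_Os08g11720 18 of 20, and around LOC_Os03g43100 and LOC_Os11g23170 16 of 20. Around LOC_Os03g02470 only 2 of 20 were at 0, around LOC_Os01g10880 3 and around LOC_Os04g50780 4. Among the 4 most abundant loci the surroundings differed as well, with 9 of 20 at 0 around LOC_Os03g26280 and 14 of 20 around LOC_Os07g13220. The closest tested loci to LOC_Os08g11720 were 21 loci before it and 67 after it.

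Next to LOC_Os10g29390, LOC_Os10g29400 showed the same direction at a lower level, with 0.170, 0.322 and 0.187 FPKM in OEZ and 0 in ZH17. It was the only other locus within 10 loci of any of the 15 that was above 0 in all samples of one genotype and listed at 0 in all samples of the other.

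The neighbours were then tested, since the rule did not choose them, although they share its samples and contrast. Taking the 3 nearest tested loci on each side of each of the 15 gave 84 loci, whose log2 fold changes (OEZ against ZH17) had a median of 0.03, beside 0.02 over all tested loci. Not all of them were close, since untested loci lay between, and before LOC_Os11g23170 the third was 101 loci away. Of the 84, 3 passed the thresholds (3.57%, beside 2.98% of all tested loci), and all 3 were lower in OEZ, as were 1.42% of all tested loci. The 3 samples of each genotype did not overlap for 14 of the 84, or 16.7%, beside 29.2% of all tested loci. The count rested on the fit and on single libraries. Blocked by replicate number, 1 of the 84 neighbours and 321 of all tested loci passed. Without OEZ replicate 1 it was 1 of 83 neighbours and 358 of all tested loci, and without ZH17 replicate 2 it was 1 of 84 and 367.

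Around the loci present in OEZ only, 1 of 66 neighbours passed. This was LOC_Os10g29470, described as a dehydrogenase, the tested locus after LOC_Os10g29390, which fell from 6.10 ± 0.415 FPKM in ZH17 to 3.53 ± 0.398 in OEZ (log2 fold change -0.78 ± 0.12, SE; adjusted p = 0.016, limma). In the fit blocked by replicate number it had an adjusted p of 0.077, and without OEZ replicate 1, OEZ replicate 3 or ZH17 replicate 2 it was 0.052, 0.055 and 0.073.

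The loci directly beside LOC_Os03g02470 were expressed in both genotypes. LOC_Os03g02460, described as a retinol dehydrogenase, had 4.22 ± 1.04 FPKM in ZH17 and 6.61 ± 0.261 in OEZ (log2 fold change 0.66 ± 0.17, adjusted p = 0.074), and LOC_Os03g02480 had 8.67 ± 0.989 and 10.4 ± 1.05 FPKM (adjusted p = 0.24). Neither passed the thresholds here. LOC_Os03g02460 is, however, among the 1351 loci that the study listed as differentially expressed by its own Cuffdiff test. LOC_Os07g06834 lay between LOC_Os07g06830, at 17.5 ± 1.88 FPKM in ZH17 and 14.0 ± 2.10 in OEZ, and LOC_Os07g06840, at 45.0 ± 10.2 and 42.5 ± 2.44 FPKM. The rule chose LOC_Os03g02470 and LOC_Os07g06834 by their difference between genotypes, so nothing is read from the smaller differences of the genes next to them.

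Except for LOC_Os10g29470, the nearest tested loci of the remaining loci present in OEZ only did not pass the thresholds either. LOC_Os02g54820, 3 loci after LOC_Os02g54790, had 51.0 ± 5.24 FPKM in ZH17 and 36.5 ± 0.385 in OEZ (log2 fold change -0.48 ± 0.08), and its adjusted p of 0.019 passed while its fold change did not reach 1.5. LOC_Os01g46840 and LOC_Os01g46870, around LOC_Os01g46860, had log2 fold changes of 0.25 and 0.39 (adjusted p = 0.43 and 0.28). LOC_Os08g25010 and LOC_Os08g25050, around LOC_Os08g25040, had -0.08 and -0.07 (adjusted p = 0.64 and 0.61).

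LOC_Os03g26250, before LOC_Os03g26280, had 1.58 ± 1.49 FPKM in ZH17 and 0.930 ± 1.61 in OEZ, an SD as large as the mean in both genotypes, and LOC_Os03g26350 after it had a log2 fold change of -0.02. LOC_Os03g43020 and LOC_Os03g43114 around LOC_Os03g43100 had log2 fold changes of 0.21 and -0.13. LOC_Os11g35220 and LOC_Os11g35310 around LOC_Os11g35300 had -0.20 and 0.06, and LOC_Os02g54780 before LOC_Os02g54790 also had -0.20. LOC_Os08g11480 and LOC_Os08g12430 around LOC_Os08g11720 had 0.02 and 0.09, and LOC_Os10g29310 before LOC_Os10g29390 had -0.07. None of these passed the thresholds, with adjusted p from 0.14 to 0.96.

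Around LOC_Os01g10880, the nearest loci were low in both genotypes. LOC_Os01g10870 had 1.38 ± 0.472 FPKM in ZH17 and 1.87 ± 0.367 in OEZ (adjusted p = 0.41), and LOC_Os01g10890 had 0.729 ± 0.0967 and 0.755 ± 0.0737 FPKM (adjusted p = 0.93). Around LOC_Os04g50780, LOC_Os04g50770 had 6.88 ± 1.5 FPKM in ZH17 and 6.50 ± 1.25 in OEZ, and LOC_Os04g50790 had 11.4 ± 0.924 and 11.3 ± 1.41 FPKM. No neighbour of these 2 loci passed the thresholds within 3 tested loci.

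**Figure D4:**
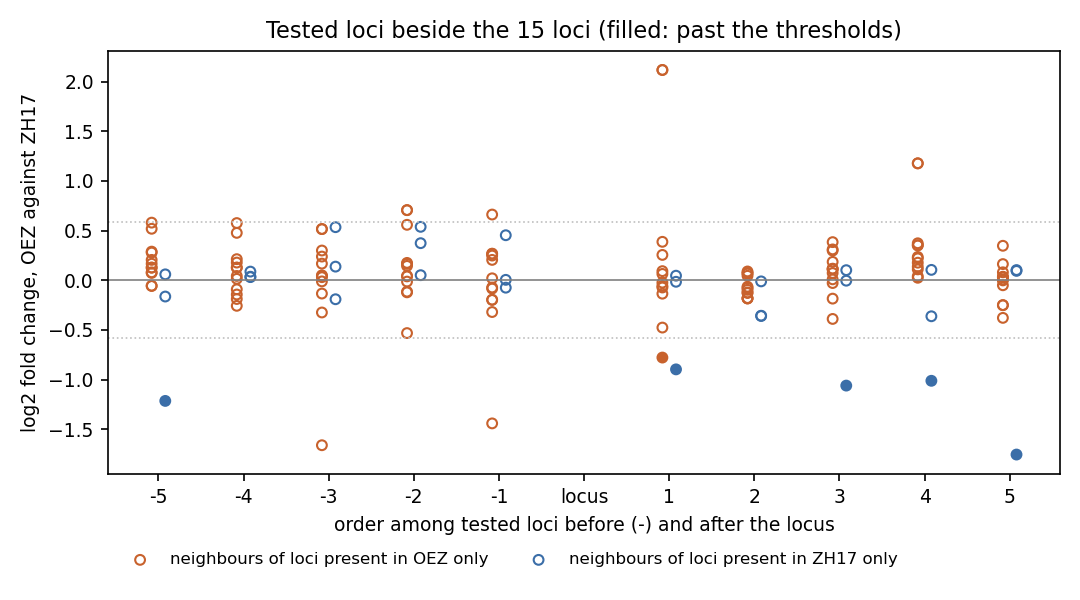
Log2 fold change (OEZ against ZH17, vertical axis) of the 5 nearest tested loci on each side of the 15 loci, by their order from the locus (horizontal axis), in orange beside loci present in OEZ only and in blue beside loci present in ZH17 only; dotted lines mark a 1.5-fold change. Filled circles passed the thresholds, and 5 of these 6 lay beside LOC_Os07g13220, 1 of them inside the left-out stretch of chromosome 7, all lower in OEZ.

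Most neighbours past the thresholds lay beside LOC_Os07g13220. Of the 18 neighbours of the loci present in ZH17 only, 2 passed the thresholds, both of them after LOC_Os07g13220, and within 5 tested loci on each side it was 5 of 30. Of these 5, 4 lay after the locus, and the other, LOC_Os07g12890, a metal cation transporter inside the left-out stretch, fell from 7.52 ± 0.989 to 3.19 ± 0.489 FPKM (log2 fold change -1.21 ± 0.15, SE; adjusted p = 0.0073, limma). LOC_Os07g13220 follows the end of the left-out stretch of chromosome 7, with 19 loci between, of which 2 were tested and differed little. LOC_Os07g13170 had 37.2 ± 1.54 FPKM in ZH17 and 37.3 ± 0.402 in OEZ, and LOC_Os07g13160 had 2.84 ± 0.905 and 2.91 ± 0.711 FPKM. The 2 tested loci directly before LOC_Os07g13220 thus had like means in both genotypes, whereas most of those after it were lower in OEZ.

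LOC_Os07g13270, an SNF7 domain containing protein, had 201, 201 and 210 FPKM in ZH17 and 96.8, 97.4 and 99.3 FPKM in OEZ. The groups were far apart beside their spread, with 204 ± 4.93 against 97.8 ± 1.32 FPKM and a log2 fold change of -1.06 ± 0.05 (adjusted p = 0.00014, limma). SNF7 domain proteins belong to the ESCRT machinery, which sorts membrane proteins into vesicles of the endosome.

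LOC_Os07g13234, an expressed protein with no further description, fell from 22.5 ± 2.23 to 12.1 ± 1.89 FPKM (log2 fold change -0.90, adjusted p = 0.012), but in the fit blocked by replicate number it had an adjusted p of 0.054, with 0.057 without OEZ replicate 1 and 0.053 without ZH17 replicate 2. LOC_Os07g13280, an RNA recognition motif protein, fell from 27.4 ± 2.68 to 13.5 ± 0.943 FPKM (log2 fold change -1.01, adjusted p = 0.0026). LOC_Os07g13360, an expressed protein, fell from 16.2 ± 2.58 to 4.72 ± 0.738 FPKM (log2 fold change -1.75, adjusted p = 0.0024). These 4 were the loci that fell out of 6 tested from LOC_Os07g13234 to LOC_Os07g13370, a stretch that ends 13 loci after LOC_Os07g13220.

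The other 2 had lower values in OEZ without passing, at log2 fold changes of -0.36 for LOC_Os07g13260 and -0.60 for LOC_Os07g13370 (adjusted p = 0.60 and 0.069). The median over the 6 was -0.95, whereas over the next 6 tested loci it was 0.05, with a range of -0.17 to 0.34 and none past the thresholds. The end of the stretch was chosen after the values had been seen. On the same chromosome, LOC_Os07g06834, present in OEZ only, lay 519 loci before the left-out stretch, and the median log2 fold change of the 228 tested loci between them was 0.01.

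**Figure D5:**
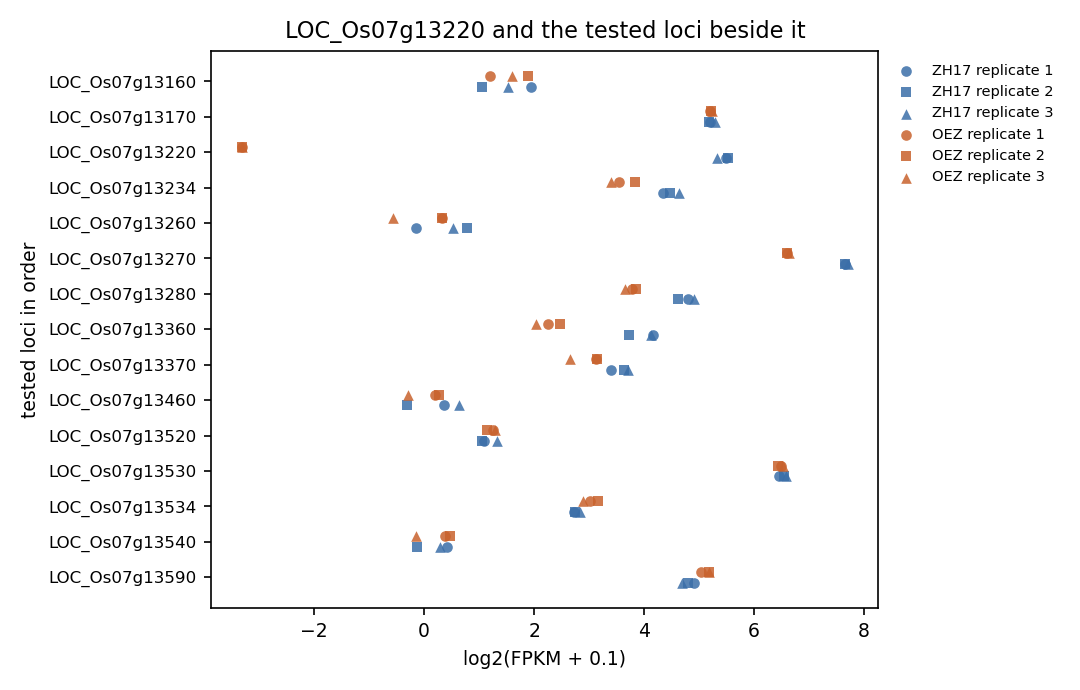
Level of LOC_Os07g13220 and of the tested loci beside it in each library, as log2(FPKM + 0.1) on the horizontal axis, in locus order from top to bottom, with ZH17 in blue and OEZ in orange. LOC_Os07g13220 was listed at 0 in OEZ, 4 of the 6 tested loci from LOC_Os07g13234 to LOC_Os07g13370 were lower in OEZ past the thresholds, and the loci before and after them overlap or lie close together.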

How the data were processed

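Paired-end TruSeq libraries were sequenced on an Illumina HiSeq instrument. The authors aligned reads with TopHat to the Nipponbare genome (IRGSP-1.0, MSU annotation) and computed FPKM with Cuffdiff, deposited as 1 FPKM value per locus and library, and the tool versions are not given in the sources used here. Low values were kept in the deposited tables. No column of the authors' comparisons was used. The study's supplementary table served only for the names and descriptions of the 1351 loci it lists as differentially expressed, none of them among the 15.

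The rule was applied to FPKM as deposited. Loci whose FPKM averaged 0.5 or more over the samples were tested with limma 3.58.1 in R 4.3.3 on log2(FPKM + 0.1), with a variance trend, genotype as the only term and Benjamini-Hochberg adjustment over 22841 loci. Thresholds were a fold change of 1.5 and an adjusted p of 0.05. The log2 scale understates changes of low loci. The fit was checked on simulated data. The 15 loci, the neighbour windows and the marker lists were chosen with earlier results of these data known. Every locus taken by the rule is named, with its nearest tested loci, neighbours past the thresholds, and the 5 loci next to each limit. Other pseudocounts, filters, scalings, limits of the rule, the replicate number as a block and leaving out each library were tried. P-values measure the spread between the pools of plants.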

Additional observations from a re-analysis of the deposited data

How the results depend on the processing

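With a lower limit of 0.5 FPKM the rule gave 20 loci present in OEZ only and 6 in ZH17 only, and with a limit of 5 it gave 3 and 2. An upper limit of 0.05 FPKM, or 0 in every sample, gave 9 and 3, and a limit of 0.2 gave 17 and 4. Median-ratio scaling gave 13 and 3, and quantile normalization 12 and 3, as did keeping the left-out stretches. Leaving out each library gave 15 to 18 loci present in OEZ only and 4 to 11 in ZH17 only, where each omission relaxes the rule and can only add loci. The loci past the thresholds, 681, ranged from 327 to 967 when a library was left out, and were 321 with the replicate block (201 higher and 120 lower in OEZ). Same-numbered samples did not deviate together (correlations of 0.02, 0.03 and -0.06 for numbers 1, 2 and 3). The labels do not say whether the numbers pair the samples, and these correlations cannot settle it. All 15 loci passed with the block. With a filter at a mean of 5 FPKM the 4 loci then tested passed, and 14 to 15 passed when a library was left out, where LOC_Os10g29390 had an adjusted p (limma) of 0.054 without OEZ replicate 1 and 0.055 without OEZ replicate 3. Neighbours past the thresholds numbered 1 with the replicate block, 6 with 5 tested loci on each side, and 1 to 4 when a library was left out, with 1 without OEZ replicate 1 or ZH17 replicate 2. The causes were not tested. The rule fixes the direction of the 15 loci, so their calls under these alternatives are no sign of stability. The depth is unknown, so no lower limit of detection can be given.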

Other observations

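With no limit on the level, 73 loci were above 0 in all OEZ samples and listed at 0 in all ZH17 samples, of which 9 had at least 1 FPKM in every OEZ sample and are among the 12 described above. In the other direction there were 64, of which 3 had at least 1 FPKM in every ZH17 sample and are the 3 described above. Their median level was 0.224 FPKM in OEZ and 0.0952 FPKM in ZH17.

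A wider view of one-sided loci was chosen after their values had been seen. It took loci with at least 1 FPKM in every sample of one genotype, at least 10 times the highest value of the other, and a highest value there of at least 0.1 FPKM. Outside those stretches there were 10 such loci, all higher in OEZ, OsLTPL159 among them. LOC_Os01g35330, described as a circumsporozoite protein precursor, had 88.8, 89.96 and 82.5 FPKM in OEZ and 0.355, 0.134 and 0.306 FPKM in ZH17. LOC_Os09g27930, a ubiquitin fusion protein, had 31.9, 37.2 and 40.5 FPKM in OEZ and 0.212, 0.302 and 0.457 FPKM in ZH17. LOC_Os01g64949, an expressed protein, had 15.9, 13.8 and 12.9 FPKM in OEZ against 0.420, 0.206 and 0.728 in ZH17. LOC_Os12g32390, also an expressed protein, had a mean of 18.2 FPKM in OEZ and 1.22 FPKM in ZH17. Where these loci shared a chromosome with any of the 15, the nearest lay 446 to 1712 loci away.

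Among tested loci, 94 were listed at 0 in all samples of one genotype. None of them is among the 1351 loci that the study listed, with descriptions, as differentially expressed. By the words of those descriptions, 56 loci were transposon proteins, of which 54 were tested, with 14 higher and 6 lower in OEZ past the thresholds. Of 19 F-box loci 18 were tested, with 1 higher and 8 lower, and of 17 resistance-type loci 16 were tested, with 2 higher and 5 lower. The 3 seed storage loci had none past the thresholds (limma), and the 222 expressed proteins without further description had 57 higher and 53 lower. The table holds loci that the study called changed on these samples. A share of passing loci above the 2.98% of all tested loci is therefore built into these lists. Neither the counts nor the directions are independent evidence about these families, and none of the 15 loci is in any of these lists.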
